A study of Homo sapiens with 19 samples.

Results

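TNF and 8 genes that NF-kappa-B switches on to relay, restrain or carry out its response were followed in THP-1 macrophages: TNF, NFKBIA, TNFAIP3, NFKB1, NFKB2, RELB, BIRC3, ICAM1 and TRAF1. They were found by their gene name among the non-control probes of the arrays, and all 9 were present, as 14 of 50238 probes and 9 of 31033 gene names. THP-1 is an established human monocytic leukaemia line that PMA, a phorbol ester, turns into adherent macrophage-like cells. Every flask received 30 nM PMA for 16-18 h and 2-3 h of rest. The flasks were then either left untreated (UT) or given 0.1 mM vitamin C (vit C), and RNA was taken after 8, 24, 48 and 96 h. UT cells were measured on 2, 3, 2 and 3 Agilent 1-colour arrays at the 4 time points, and vit C-treated cells on 3, 2, 2 and 2. Since UT cells too had been exposed to PMA, a change over time in any group includes the time since PMA.

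TNF is a cytokine that macrophages release in inflammation, and its receptors activate the transcription factor NF-kappa-B, which in turn raises TNF. NF-kappa-B dimers are held in the cytoplasm by I-kappa-B proteins until IKK kinases mark these for destruction. The freed dimers then induce their own inhibitors and subunits along with adhesion and survival genes, so that the response brakes itself.

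Letters that match the motif bound by NF-kappa-B were looked up in the RefSeq promoter windows (GRCh38), which cover 250 bases before to 50 bases after a transcript start. Of the 9 genes, 8 had a window, and RELB had none. A loose kappa-B motif of 3 G, 5 bases of any kind and 2 C, searched on both strands, was found in the windows of all 8 genes, and in 61.7% of the 27305 genes with a window. The stricter kappa-B consensus decamer, each match of which is also a match of the loose motif, was found in 5 of the 8 (NFKBIA, TNFAIP3, NFKB1, NFKB2 and BIRC3) and in 13.3% of all genes with a window. TNF, ICAM1 and TRAF1 held the loose motif alone. A match describes letters in this window and not occupancy by the factor. One stretch is shown for TNF and for each gene with a consensus match, in the direction of the gene, with the decamer in capitals. The decamer begins 101, 81, 67, 49, 107 and 199 bases before the start in this order, and in NFKBIA, TNFAIP3 and BIRC3 it lies on the opposite strand.
TNF, chr6:31575454-31575483, plus strand, loose motif: atgagctcatGGGTTTCTCCaccaaggaag
NFKBIA, chr14:35404811-35404840, minus strand, consensus: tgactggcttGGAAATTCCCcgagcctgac
TNFAIP3, chr6:137867182-137867211, plus strand, consensus: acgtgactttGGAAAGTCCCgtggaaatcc
NFKB1, chr4:102501300-102501329, plus strand, consensus: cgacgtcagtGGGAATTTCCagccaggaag
NFKB2, chr10:102394461-102394490, plus strand, consensus on both strands: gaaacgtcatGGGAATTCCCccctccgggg
BIRC3, chr11:102317275-102317304, plus strand, consensus: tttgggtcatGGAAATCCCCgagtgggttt

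Levels are log2 processed signals minus the 75th percentile of each array. A level below 0 is a signal under that percentile and not an absent transcript, and all 14 probes were well above background on all 19 arrays. A gene was called differentially regulated if, in limma, any of its probes changed by 1 or more on the log2 scale with a q (Benjamini-Hochberg, adjusted over all probes tested) no higher than 0.05. Where the probes of a gene moved in opposite directions the gene was not tested. Where a gene has several probes, its value is that of the first probe, the one with the highest mean signal, unless another is named. The study's methods describe the samples of a group as biological replicates from separate flasks of the same line, and q-values measure the spread between them.

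The arrays lay on 4 slides, and treatment and slide were largely joined. All UT arrays of 8, 24 and 48 h and UT 96 h replicate 1 were on 1 slide, the second held UT 96 h replicates 2 and 3, all vit C arrays of 8 and 24 h and vit C 48 h replicate 1, the third held vit C 48 h replicate 2, and the last held both vit C arrays of 96 h. No slide held UT and vit C arrays of the same time point, and UT 96 h is the only UT group on more than 1 slide. At 96 h and in the average the vit C effect and the slide cannot be told apart, and at 8, 24 and 48 h a fit with the slide as a block separates them only through the arrays that link slides. By contrast, 24 h against 8 h lies within a slide in each treatment. UT 96 h replicate 3 stood apart from its group, with GAPDH at 6.48 against 7.60 and 7.77 in the others, and results that rest on it are also given without it. The 75th percentile signal ranged from 290.2 to 903.5. It was highest on the vit C arrays of 96 h, at 787.6 and 903.5, with UT 96 h replicate 3 next at 625.6. Those vit C arrays also had the most probes well above background (69.8% and 72.8%). Subtracting the percentile lowers levels most there. Before it, the first ICAM1 probe had signals of 4863 and 5561 on them, against 3421, 4366 and 4851 in UT cells at 96 h. Of 11 monocyte and macrophage markers on the array, 9 were well above background on all arrays and the mannose receptor MRC1 on 0. From 8 to 96 h, 2 of the 11 were called higher and 4 lower in UT cells, and with vit C 2 were called in each direction. In UT cells the mean level of CD14 went from 0.68 to 4.91 and that of CD163 from 0.84 to 2.19, while ITGAX went from 4.58 to 2.70, CD68 from 3.61 to 2.10, LYZ from -1.24 to -2.70 and SPI1 from 0.12 to -0.94. Lists of other cell types were mixed. Of 5 T cell markers CD3E was well above background on all 19 arrays and CD3D on 0, of 4 endothelial markers VWF on all and CDH5 on 0, and of 5 epithelial markers KRT14 and KRT18 on all and CDH1, KRT5 and TACSTD1 (EPCAM) on 0. VWF went from -0.08 at 8 h to -2.40 at 96 h in UT cells. Of 5 fibroblast markers, PDGFRA was well above background on all arrays and COL1A2 on 0, and DCN moved with time, from -5.58 to -0.29 in UT and from -5.27 to 2.19 in vit C-treated cells, and COL1A1 was well above background on 5 arrays. Of the B cell markers, PAX5 and CD79A were well above background on all 19 arrays, CD79A between 0.17 and 1.98 as group means, and MS4A1 on 1. The part of these markers in the results was not tested.

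TNF, the ligand, was lowest at 96 h in both treatments by both of its probes, and by the first it was highest at 24 h in both. In UT cells its level was 4.53 and 4.45 at 8 h, 5.51, 5.13 and 5.49 at 24 h, 5.11 and 5.10 at 48 h, and 1.85, 1.60 and 0.96 at 96 h. The vit C arrays gave 4.00, 3.98 and 4.15 at 8 h, 5.37 and 5.53 at 24 h, 4.95 and 5.06 at 48 h, and 2.39 and 2.13 at 96 h. The 5 arrays of 96 h lay below every other array, and vit C arrays were below UT arrays at 8 h and above them at 96 h without overlap. Ordered by group mean, vit C and UT cells at 24 h overlapped at the top, and no other neighbouring groups did. The 96 h level was 8.09-fold below the 8 h level in UT cells (log2 fold change -3.02 ± 0.23 SE, q = 5.36e-07) and 3.45-fold below it in vit C-treated cells (-1.78 ± 0.23, q = 5.42e-05). The second TNF probe fell by 3.08 and by 2.55 on the log2 scale, and in vit C-treated cells its mean was 1.63 at 24 h and 1.67 at 48 h. Without UT 96 h replicate 3 the fall in UT cells was -2.76, and within the first slide, where UT 96 h is 1 array, it was -2.63 (q = 0.00265).

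**Figure D1:**
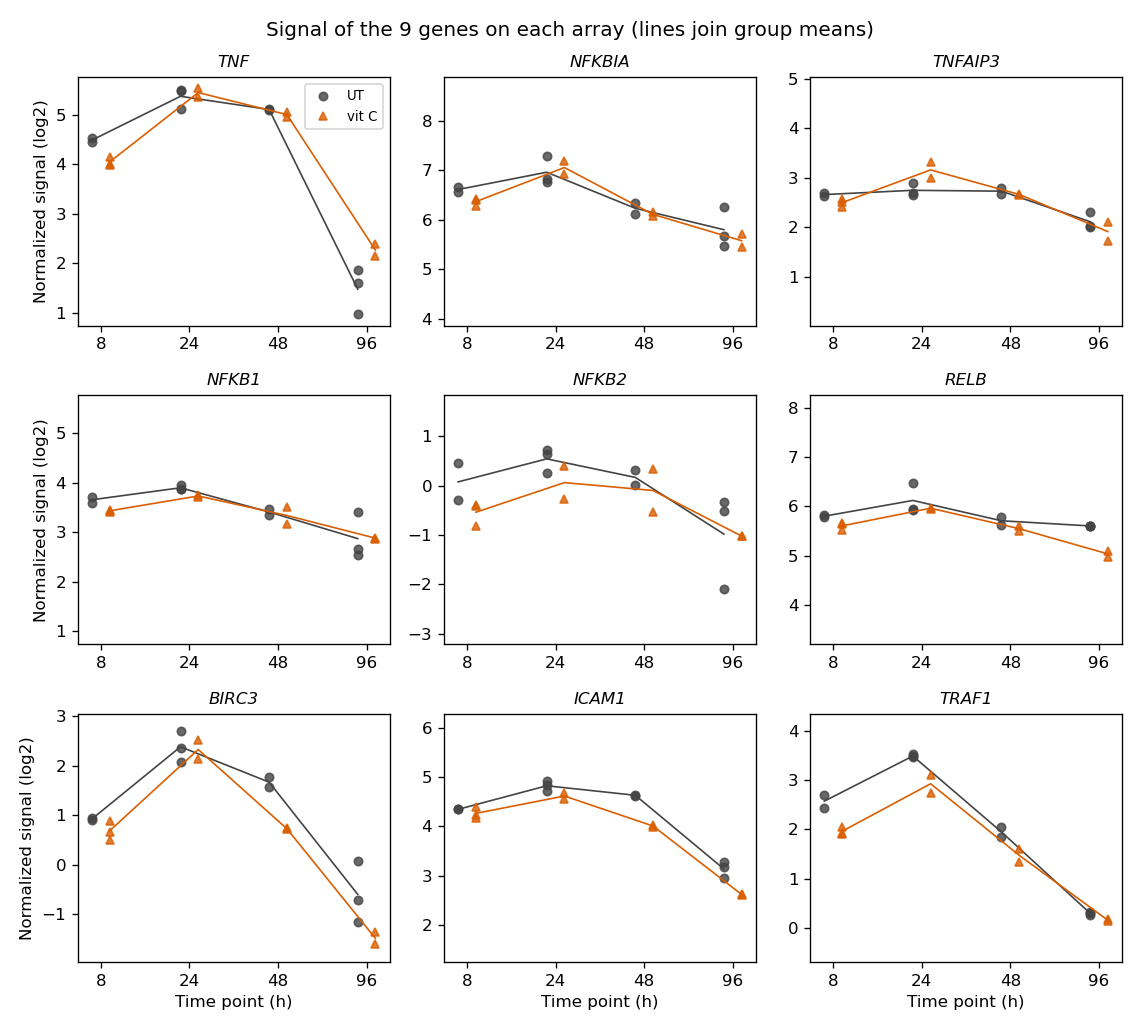
Normalized log2 signal (y axis) of the first probe of each of the 9 genes at 8, 24, 48 and 96 h (x axis, evenly spaced), with 1 point per array (grey circles UT, orange triangles vit C) and lines through group means. Each panel spans the same number of log2 units around its own middle; TNF lies between 0.96 and 2.39 at 96 h, below all its earlier points, and RELB in UT cells at 96 h, near 5.61, is close to its 8 h points.

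Of the brakes, TNFAIP3 was called lower at 96 h, by its second and dimmer probe alone, and NFKBIA, with 1 probe, was not. By first probes NFKBIA fell more than TNFAIP3 in both treatments. NFKBIA encodes I-kappa-B alpha, which binds NF-kappa-B dimers and takes them out of the nucleus. In UT cells its level was 6.66 and 6.57 at 8 h, 7.29, 6.83 and 6.76 at 24 h, 6.12 and 6.35 at 48 h, and 5.66, 5.47 and 6.26 at 96 h. With vit C it was 6.28, 6.43 and 6.39, then 6.93 and 7.18, then 6.07 and 6.15, and 5.70 and 5.45 at 96 h. The 24 h arrays were the highest and the 96 h arrays lay below those of 8 h in each treatment, with the 96 h groups of UT and vit C overlapping. From 8 to 96 h it fell, with a q below 0.05, by 0.81 (SE 0.24, q = 0.0235) on the log2 scale in UT and by 0.79 (SE 0.24, q = 0.0189) in vit C-treated cells, short of the fold threshold. Without UT 96 h replicate 3 the change in UT cells was -1.04 and the gene was called.

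TNFAIP3 encodes A20, a ubiquitin-editing enzyme that shuts off signalling below the TNF receptor, and its 2 probes did not follow the same course. The first probe was flat in UT cells up to 48 h, at 2.64 and 2.68, then 2.65, 2.69 and 2.90, then 2.67 and 2.79, and lay at 2.31, 2.02 and 2.01 at 96 h. With vit C it was at 2.40, 2.52 and 2.57, then 3.00 and 3.32, then 2.65 and 2.67, and at 2.10 and 1.72 at 96 h. Vit C arrays lay above UT arrays at 24 h, whereas by the second probe vit C arrays, at -1.27 and -2.35, lay below the UT arrays, at -0.83, -0.56 and -0.97. The vit C effect at 24 h was therefore 0.41 ± 0.18 (SE) by the first and -1.02 ± 0.34 by the second, and the gene was not tested there. At 96 h against 8 h the probes went the same way, with log2 fold changes of -0.55 and -1.14 in UT and of -0.59 and -1.75 in vit C-treated cells. The gene was called lower in both treatments by the second probe (q = 0.0271 and 0.0015). In UT cells that call was lost without either array of 8 h, without UT 96 h replicate 2 or 3, within the first slide and with the slide as a block.

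None of the 3 NF-kappa-B subunits was called at any time by limma. At 96 h against 8 h, NFKB1 had an unadjusted p of at most 0.05 in both treatments, as had NFKB2 in UT and RELB in vit C-treated cells. The share of all genes at that p was not counted. A q of at most 0.05 at any fold was found there for 22.5% of genes in UT and 40.1% in vit C-treated cells. NFKB1 gives rise to p50 of the canonical pathway. Its level was 3.60 and 3.71 at 8 h, 3.96, 3.87 and 3.87 at 24 h, 3.48 and 3.34 at 48 h and 2.66, 2.55 and 3.41 at 96 h in UT cells. With vit C it was 3.41, 3.45 and 3.43, then 3.70 and 3.76, then 3.50 and 3.17, and 2.89 and 2.87 at 96 h. The 96 h arrays lay below those of 8 h in both treatments, UT 96 h replicate 3 closest to them. The change was -0.79 in UT (SE 0.22, q = 0.0211) and -0.55 in vit C-treated cells (SE 0.22, q = 0.0667), and without UT 96 h replicate 3 it was -1.05 in UT cells and passed the fold threshold.

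NFKB2, the precursor of p52 in the non-canonical pathway, had the widest spread within a group of any first probe, an SD of 0.97 in UT cells at 96 h. At 8 h the UT arrays stood at 0.45 and -0.30 and at 96 h at -0.52, -0.33 and -2.10, and the vit C arrays at -0.39, -0.82 and -0.41 and at -1.02 and -1.02. The 96 h change was -1.06 (SE 0.45, q = 0.116) in UT cells, which became -0.50 without UT 96 h replicate 3, and -0.48 (SE 0.45, q = 0.417) in vit C-treated cells.

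RELB, the partner of p52, had the smallest change of the 9 in UT cells from 8 to 96 h. UT arrays read 5.79 and 5.82 at 8 h and 5.61, 5.61 and 5.60 at 96 h, a difference of -0.20 (SE 0.18, 95% interval -0.59 to 0.19, q = 0.496). Vit C arrays read 5.52, 5.66 and 5.64 at 8 h and 5.09 and 4.99 at 96 h, a difference of -0.57 (SE 0.18, q = 0.0261). The vit C arrays of 96 h were the lowest of all 19, and did not overlap the UT arrays of 96 h.

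All 3 effector genes were called lower at 96 h in both treatments. BIRC3 encodes cIAP2, a ubiquitin ligase that blocks cell death at the TNF receptor. In UT cells its level was 0.95 and 0.90 at 8 h, 2.70, 2.37 and 2.09 at 24 h, 1.58 and 1.76 at 48 h, and -1.15, -0.72 and 0.07 at 96 h. With vit C it was 0.67, 0.88 and 0.51, then 2.13 and 2.53, then 0.73 and 0.72, and -1.61 and -1.37 at 96 h. It peaked at 24 h in both treatments. By 48 h it was back near its 8 h level in vit C arrays (log2 fold change 0.04, q = 0.933). UT arrays of 48 h lay above those of 8 h (0.74, q = 0.184) and above the vit C arrays of 48 h. Neither UT change nor difference between treatments (q = 0.142) was called there, and the 48 h arrays of UT and vit C lay on different slides. BIRC3 rose 2.75-fold from 8 to 24 h in UT (log2 fold change 1.46 ± 0.30 SE, q = 0.015) and 3.13-fold in vit C-treated cells (1.64 ± 0.30, q = 0.00339). At 96 h it was 2.88-fold below its 8 h level in UT (-1.53 ± 0.30, q = 0.00183; -1.86 without UT 96 h replicate 3) and 4.52-fold below it in vit C-treated cells (-2.18 ± 0.30, q = 8e-05). The rise in UT cells lost its call without UT 8 h replicate 1 or 2 or UT 24 h replicate 1 (q from 0.0186 to 0.131 over the arrays left out), and that in vit C-treated cells without vit C 24 h replicate 2 (q = 0.0567).

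ICAM1, the adhesion molecule to which leukocyte integrins bind, fell from 8 to 96 h by all 3 of its probes. Its first probe read 4.34 and 4.35 at 8 h, 4.92, 4.71 and 4.84 at 24 h, 4.62 and 4.64 at 48 h and 3.18, 3.29 and 2.95 at 96 h in UT cells. With vit C it read 4.24, 4.17 and 4.39, then 4.69 and 4.55, then 3.98 and 4.04, and 2.63 and 2.62 at 96 h. Vit C arrays lay below UT arrays at 24, 48 and 96 h without overlap, and the 8 h groups overlapped. The 96 h level was 2.31-fold below 8 h in UT (-1.21 ± 0.16 SE, q = 8.38e-05) and 3.12-fold below it in vit C-treated cells (-1.64 ± 0.16, q = 3.92e-06). The other probes had log2 fold changes of -1.83 and -1.83 in UT and of -3.06 and -2.89 in vit C-treated cells.

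TRAF1, an adaptor that NF-kappa-B induces and that joins TRAF2 at TNF family receptors, fell at 96 h by both of its probes. It read 2.70 and 2.44 at 8 h, 3.46, 3.48 and 3.52 at 24 h, 2.05 and 1.85 at 48 h and 0.32, 0.26 and 0.34 at 96 h in UT cells. With vit C it read 2.06, 1.92 and 1.91, then 3.10 and 2.75, then 1.35 and 1.61, and 0.19 and 0.14 at 96 h. By this probe UT arrays lay above vit C arrays at each time point, and by 48 h it was below 8 h in both treatments. It was 4.81-fold below 8 h at 96 h in UT (-2.27 ± 0.17 SE, q = 4.45e-07) and 3.48-fold below it in vit C-treated cells (-1.80 ± 0.17, q = 2.88e-06). The second probe gave -1.91 and -2.31.

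Counted together, most of the 9 genes were called at 96 h and few at 24 h. At 24 h against 8 h all 9 first probes were higher in each treatment, with a median log2 fold change of 0.47 in UT and 0.66 in vit C-treated cells against -0.01 and 0.01 over 17292 genes well above background on all arrays. Of the 9, BIRC3 was called higher in UT cells (1.37% of all genes tested were) and TNF and BIRC3 in vit C-treated cells (2.95%), where TNFAIP3 and ICAM1 had opposing probes and were not tested. Within a slide, where fewer arrays enter, BIRC3 (q = 0.0366) and, by its second probe, TNF (first probe q = 0.0808) were called in UT cells, and in vit C-treated cells neither was (first probe q = 0.0651 for BIRC3 and 0.0656 for TNF). TNF rose by 1.40 (SE 0.23, q = 0.00185) in vit C-treated cells and its change in UT cells was 0.89 (SE 0.23, q = 0.0571). TRAF1 changed by 0.91 and 0.96, with q of 0.00903 and 0.00311, below the fold threshold. A q of at most 0.05 at any fold was found for 2 of the 9 in UT cells (3.63% of genes) and for 3 in vit C-treated cells (7.82%). At 48 h against 8 h, 0 of the 9 were called by limma in either treatment (8.9% of genes tested in UT and 13.1% in vit C-treated cells were), with 3 of them in each treatment at an unadjusted p of at most 0.05 by any probe (25.6% and 30.7% of all genes). At any fold, 0 in UT cells (11.4% of genes) and 2 in vit C-treated cells, TNF and ICAM1 (18.9%), had a q of at most 0.05, and TNFAIP3 was not tested.

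At 96 h against 8 h all 9 first probes were lower in each treatment and their groups did not overlap. The median was -1.06 in UT and -0.79 in vit C-treated cells, against -0.04 and -0.08 over the genes well above background. Groups of these sizes did not overlap for 36.9% of all genes in UT and for 67.5% in vit C-treated cells. TNF, TNFAIP3, BIRC3, ICAM1 and TRAF1 were called lower in both treatments, 5 of 9 against 7.18% of the genes tested in UT and 18% in vit C-treated cells. Without UT 96 h replicate 3 there were 6 in UT cells, with NFKBIA and NFKB1 in and TNFAIP3 out, and the methods' t-test called TRAF1 alone in UT cells and the same 5 with vit C. At any fold 7 of 9 had a q of at most 0.05 in each treatment, against 22.5% and 40.1% of all genes. The median of 10 housekeeping genes was 0.07 and 0.02. The 24, 48 and 96 h comparisons of a treatment share its 8 h arrays. In vit C-treated cells the 96 h arrays had a slide and a scan day to themselves, so time and slide cannot be told apart there. Fewer cells of a type and less RNA per cell cannot be told apart in these bulk samples.

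**Figure D2:**
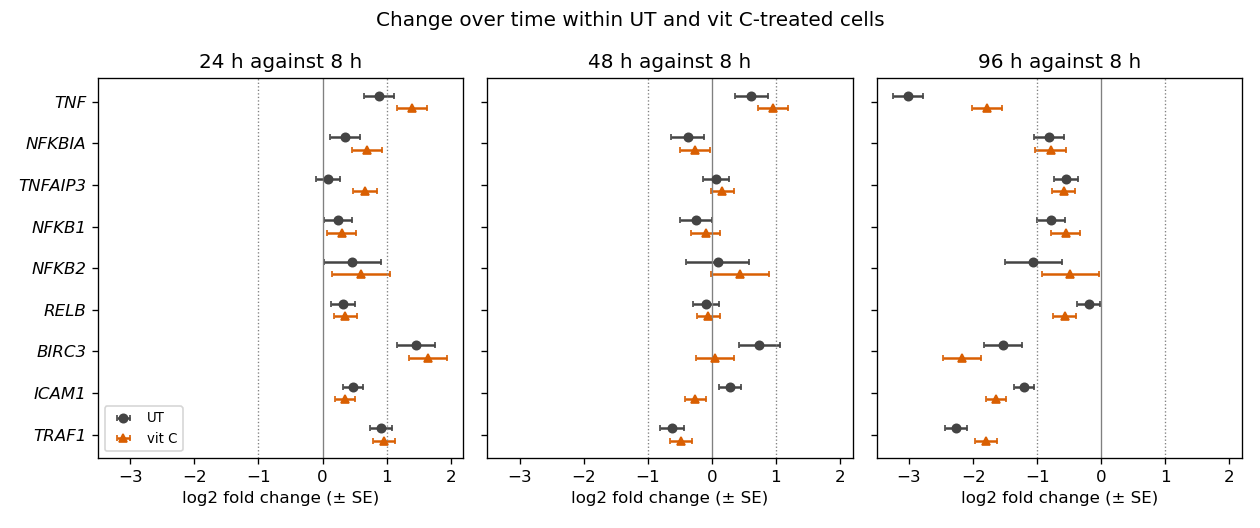
Log2 fold change (x axis, ± SE from limma) of the first probe of each gene (y axis) at 24, 48 and 96 h against 8 h, in UT (grey circles) and vit C-treated cells (orange triangles); dotted lines mark the fold threshold of 1. All 9 genes lie right of 0 at 24 h and left of 0 at 96 h, where TNF in UT cells is at -3.02 and RELB in UT cells at -0.20.

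Whether vit C altered these genes was asked at each time point, and 0 of the 9 were called by limma at 8, 24, 48 or 96 h or in the average of the 4 effects. ICAM1 at 8 h, TNF, TNFAIP3 and TRAF1 at 24 and 48 h, and TNF in the average had opposing probes and were not tested. Over all genes 0.549%, 1.65%, 3.64%, 12.8% and 3.46% were called. By any probe, opposing ones included, 1, 3, 3, 6 and 5 of the 9 had an unadjusted p of at most 0.05, as had 16%, 21.8%, 19.4%, 33.7% and 36.3% of all genes, and the methods' t-test called 0 at each time point. For all 9 first probes the vit C arrays had the lower mean at 8 h (differences of -0.61 to -0.08) and at 48 h (-0.94 to -0.07), as 7 of 9 did at 96 h and 6 of 9 at 24 h. The 9 had medians of -0.24, -0.16, -0.16 and -0.20 in order of time, against -0.07, -0.01, -0.08 and -0.09 over genes well above background. With the slide as a block, the 8 h difference of TNF went from -0.44 to 0.13, that of TNFAIP3 from -0.16 to 0.13 and that of NFKB2 from -0.61 to 0.08. The same block turned NFKB2 from -0.48 to 0.22 and NFKBIA from 0.09 to -0.11 at 24 h, and TNF from -0.10 to 0.42 and TNFAIP3 from -0.07 to 0.22 at 48 h. It moved BIRC3 to -1.07 at 8 h, -0.88 at 24 h and -1.76 at 48 h (q = 0.703, 0.653 and 0.206), and 0 of the 9 were called by limma at these times with it.

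By the first probes, the largest differences were at 48 and 96 h. TNF was 1.73-fold higher in vit C-treated than in UT cells at 96 h (0.79 ± 0.23 SE, 95% interval 0.29 to 1.29, q = 0.0408), while its second probe differed by 0.21 (q = 0.704). Without UT 96 h replicate 3 the difference was 0.53 and its 2 probes went in opposite directions. ICAM1 was lower at 96 h by each of its probes, with differences of -0.52, -0.95 and -0.88 (q = 0.0473, 0.0319 and 0.0387). At 48 h its probes differed by -0.62, -0.85 and -0.83 (q = 0.071, 0.105 and 0.126). BIRC3 differed by -0.94 at 48 h (95% interval -1.64 to -0.25, q = 0.142) and by -0.89 at 96 h (-1.53 to -0.26, q = 0.0574). TNF and ICAM1 were thus the 2 of 9 with a q of at most 0.05 at any fold at 96 h, where 17.2% of genes had one. By first probes, neither kept such a q with every array left out in turn. Their differences then ran from 0.53 to 0.98 for TNF and from -0.61 to -0.44 for ICAM1. BIRC3 was called lower at 96 h without UT 96 h replicate 1 (-1.17, q = 0.029), and TNFAIP3 and ICAM1 were without UT 96 h replicate 3, each by a probe other than the first.

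Averaged over the 4 time points, TRAF1 was lower with vit C (-0.45, SE 0.09, q = 0.00448), as were ICAM1 (-0.36, SE 0.08, q = 0.0122) and BIRC3 (-0.53, SE 0.15, q = 0.0343), each short of the fold threshold. The second probe of TRAF1 differed by -0.08 (q = 0.6). These 3 of 9 had a q of at most 0.05, as had 15.7% of all genes, and the q of BIRC3 ranged from 0.0105 to 0.0795 as arrays were left out in turn. For NFKBIA, NFKB1 and TNFAIP3 the 95% intervals of the average effect were -0.38 to 0.14, -0.36 to 0.13 and -0.21 to 0.20, and the second probe of TNFAIP3 differed by -0.47 (-0.84 to -0.10, q = 0.0909). An F test in limma of whether the vit C effect depends on time gave no gene of the 9 a q of at most 0.05 (lowest 0.178, second probe of ICAM1; TNF 0.193), against 1.36% of all genes. At an unadjusted p of at most 0.05, TNF by its first and ICAM1 by its other probes passed. The share of all genes passing at that p was not counted. With normexp background correction TNF passed (q = 0.0365), so whether its vit C effect is called dependent on time rests on the background correction. The test includes the 96 h effect, so a dependence on time cannot be told apart from the slide.

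**Figure D3:**
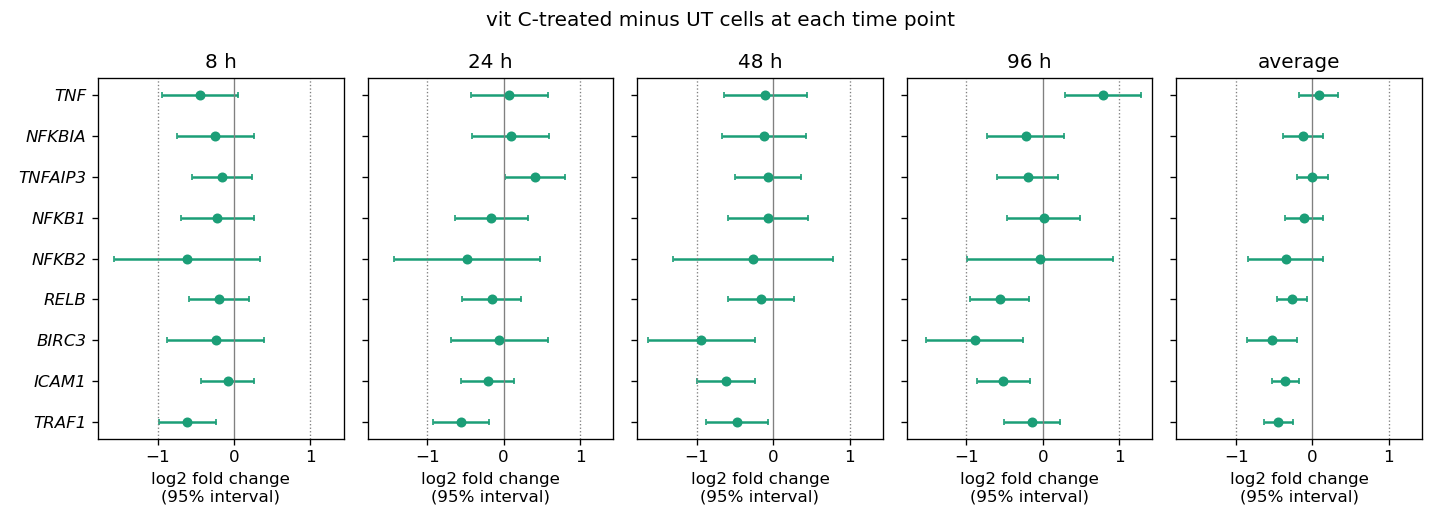
Log2 fold change of vit C-treated against UT cells (x axis, 95% interval from limma) of the first probe of each gene (y axis) at each time point and averaged over the 4; dotted lines mark the fold threshold of 1. No point reaches either dotted line; TNF at 96 h, at 0.79, is the furthest to the right.

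The rest of the pathway was described by 59 other genes, all on the array and 54 of them well above background on all arrays. At 24 h against 8 h, 8 were called higher and 0 lower in UT cells, where 1.37% of all genes were called higher. With vit C, 12 were called higher and 1 lower, with 2.95% of all genes called higher. Chemokines that draw neutrophils and monocytes led in UT cells, as CXCL3 and CCL2 did with vit C. CXCL3 rose by 2.52 in UT and 2.95 in vit C-treated cells and CCL2 by 2.20 and 2.77. CXCL1 rose by 1.63 and 2.10 and CXCL2 by 1.62 and 2.04. TNFAIP6, a secreted hyaluronan-binding protein, rose by 1.49 and 2.16, with vit C more than CXCL1 and CXCL2. Of 7 other brakes, 1 was called higher in UT cells and 2 with vit C, TNIP1 among them. OTUD7B, a deubiquitinase, rose by 1.08 in UT and TNIP1, a partner of A20, by 1.01 in vit C-treated cells. ZFP36, which encodes the protein tristetraprolin that destabilizes TNF mRNA, fell in vit C-treated cells (-1.14, q = 0.00128).

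At 48 h, 9 of the 59 were called higher and 3 lower in UT cells, and 8 higher and 5 lower with vit C, where 8.9% and 13.1% of all genes were called in either direction. CXCL3 stood at 2.21 and 2.60 above 8 h and CXCL1 at 2.05 and 3.09. In UT cells the pentraxin PTX3 (-1.82) and ZFP36 (-1.21) fell, while OTUD7B rose by 1.33. CXCL10, a chemokine for T cells, fell by 2.33 with vit C, where 1 of 2 arrays at 48 h was well above background, and the adaptor TRAF5 fell by 1.14.

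At 96 h against 8 h, 17 of the 59 were called lower and 2 higher in UT cells, against 19 lower and 3 higher with vit C, where 7.18% and 18% of all genes were called lower. Of the 6 genes of TNF supply and reception, 3 fell in each treatment. ADAM17, the sheddase that frees TNF from the membrane, had log2 fold changes of -1.58 in UT and -2.10 in vit C-treated cells, the receptor TNFRSF1A of -1.47 and -1.16, and the receptor TNFRSF1B of -1.87 and -2.17. Of 5 kinases, MAP3K14, the NIK of the non-canonical pathway, fell in both (-1.35 and -1.14) and MAP3K8 in UT cells (-1.26). Of the other Rel and I-kappa-B proteins, BCL3 fell in both (-1.32 and -1.30), and RELA, NFKBIB and REL fell in vit C-treated cells (-1.24, -1.05 and -1.03). Of 11 receptor-proximal adaptors, 0 were called with vit C by limma, and in UT cells TRAF5 rose by 1.02 and TAB3 (MAP3K7IP3 on the array) was called lower by a probe other than the first. Among 7 other brakes, none was called in UT cells. ZC3H12A, an RNase for cytokine mRNAs, fell by 1.11 in vit C-treated cells, and TNIP3 was at least 2.04-fold lower there, not well above background on either array at 96 h, while CYLD was called higher by a probe other than the first.

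Among 23 other targets, in UT cells 10 fell and 1 rose, and with vit C 9 fell and 2 rose, CXCL1 (1.87) among them. The early response gene IER3 had log2 fold changes of -2.10 in UT and -2.30 in vit C-treated cells. The apoptosis regulator TNFAIP8 (-1.69 in UT and -1.55 in vit C-treated cells), EBI3, a subunit of IL-27 (-1.67 and -1.96), the dendritic cell marker CD83 (-1.40 and -2.61) and the adhesion molecule VCAM1 (-1.61 and -2.40) fell in both treatments. IL6, an inflammatory cytokine, went the other way, rising by 3.94 at 48 h and by 2.71 at 96 h in UT cells, where 1 of the 2 arrays at 8 h measured it. With vit C, where 0 of 3 arrays at 8 h were well above background, IL6 was at least 2.72-fold higher at 24 h, at least 18.2-fold higher at 48 h and at least 4.06-fold higher at 96 h. The lists overlap in function with the 9 genes and their medians (-0.54 in UT and -0.44 in vit C-treated cells over the 59) are descriptions.

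**Figure D4:**
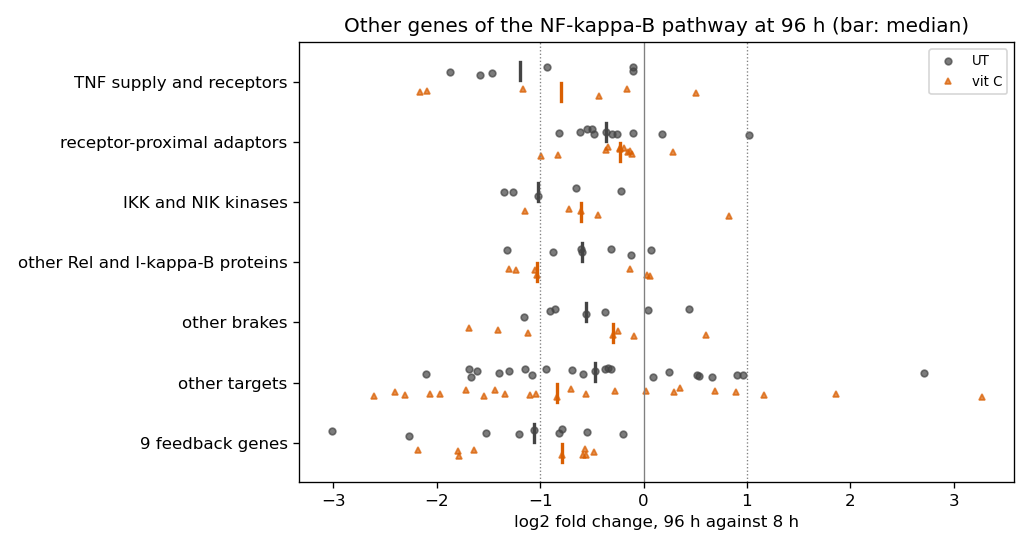
Log2 fold change at 96 h against 8 h (x axis) of the genes of each pathway list and of the 9 feedback genes (y axis), with 1 point per gene as measured by its first probe (grey circles UT, orange triangles vit C) and a bar at each median; vertical spread within a row is only for legibility. The bars lie left of 0 in each list, and IL6, plotted as measured although it was near background at 8 h, is the point furthest to the right.

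Vit C against UT gave 0 calls by limma among the 59 at 8 h, 1 at 24 h, 1 at 48 h, 6 at 96 h and 0 in the average, beside 0.549%, 1.65%, 3.64%, 12.8% and 3.46% of all genes, so at 96 h the share among the 59 was no higher than among all genes. ZFP36 was lower at 24 h (-1.34, q = 0.00252). CXCL1 was called higher with a difference of 1.34 at 48 h (q = 0.00897) and of 1.49 at 96 h (q = 0.00142), and CXCL2 and CXCL3 were called higher at 96 h by a probe other than the first. CD83 (-1.56, q = 0.000178) and GADD45B, a stress-response gene (-1.38, q = 0.000604), were lower at 96 h. The selectin SELE was at least 1.09-fold lower, not well above background on either vit C array and above it on 1 of 3 UT arrays.

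The genes whose group means over the 8 groups were most like those of TNF were MVD of the mevalonate pathway (Pearson r = 0.991), the aminopeptidase ANPEP (0.988), the lactate transporter SLC16A3 (0.987), CPEB4 (0.986), which binds mRNA, and the sulfotransferase HS3ST3B1 (0.983), out of 17291 other genes well above background on all arrays. Of the other feedback genes, NFKB2 ranked highest at 221 (r = 0.922), followed by TNFAIP3 (313, r = 0.909), ICAM1 (326, r = 0.907) and BIRC3 (354, r = 0.904), and RELB came last at 2787 (r = 0.676). There were 380 genes with r above 0.9. The points share arrays, slides and the 75th percentile of each array, and with 8 groups of which 2 lie far below the rest these are descriptions of likeness in these data.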

How the data were processed

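RNA of 19 samples of THP-1 cells was measured on Agilent 1-colour arrays. For the intensity values, the authors scanned the arrays and deposited the processed signals of Agilent Feature Extraction. The file headers give 10.5.1.1 as the version for grid placement, while the methods name another version of the software. For the log2 values, the authors, per the methods, shifted each array to its 75th percentile and deposited the series matrix, whose column medians run from -3.36 to -3.19. For the 50108 probes with 1 spot it differed from the log2 processed signal by 1 offset per array, with departures of at most 2.02e-06, and it served as an alternative. Here log2 processed signals were averaged over spots of a probe and each array's 75th percentile was subtracted.

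The 8 group means were estimated over all 19 arrays (11 residual degrees of freedom) with limma 3.58.1 in R 4.3.3, 2-sided, and tested on simulated data. Sequences are from RefSeq tables (GRCh38.p14). The 59 pathway genes come from general knowledge, and 4 were matched by an older symbol. Of each list up to 4 called genes with the largest change are named, with the few genes called by another probe added after their values were seen. The members and lists were chosen with earlier results of these data known.

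Alternatives were the methods' t-test, quantile normalization, the percentile over detected probes, normexp (offset 50), dim probes left out, opposing probes kept, gene means, series matrix values, slide and replicate blocks, and each array left out. Fits within a slide were chosen after seeing the data. Array number limits precision.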

Additional observations from a re-analysis of the deposited data

How the results depend on the processing

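The count of the 9 genes called at 24 h against 8 h in UT cells, 1 as reported, was 0 by the methods' t-test and 2 with normexp, with dim probes left out, with gene means of probes and within the first slide. At 96 h against 8 h in UT cells it was 5 as reported, 1 by the methods' t-test and 4, without TNFAIP3, within the first slide and with the slide as a block. In vit C-treated cells the count at 24 h against 8 h, 2 as reported, was 0 by the methods' t-test and 0 within the second slide, and the count at 48 h, 0 as reported, was 1 with quantile normalization. Fewer arrays entered the fits within a slide, and the cause of the other shifts was not tested. The count for vit C against UT at 96 h, 0 as reported, was 1 (ICAM1) with the replicate block, which moved no other count. The numbers do not pair the arrays: deviations of arrays with the same number correlated between -0.112 and 0.0895. With each array left out in turn the counts ranged from 0 to 1 for UT at 24 h, 0 to 0 at 48 h and 4 to 6 at 96 h, from 2 to 3, 0 to 1 (TNF, without vit C 8 h replicate 3) and 5 to 5 for vit C-treated cells, and from 0 to 2 for vit C against UT at 96 h and 0 to 0 at 8, 24 and 48 h and on average. A lone array of a group is then assumed to vary like the other groups. With normexp, TNF passed the F test (q = 0.0365). No called value changed sign. A slide block could not be fitted for comparisons with the vit C arrays of 96 h or the average effect, and the methods' t-test has no average effect.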
